A study of Mus musculus with 2 samples.

Results

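The alcohol and aldehyde dehydrogenase genes of mouse liver were examined here, namely Adh1, Adh4, Adh5, Adh7, Aldh1a1, Aldh1a7, Aldh2, Aldh3a1, Aldh3a2 and Aldh9a1. They were chosen by gene symbol, using the probe sets that the platform annotation assigns to 1 gene only. All 10 genes were measured, with 17 probe sets in all, of 8251 named genes on the array. The study hybridised total RNA titled liver, from a commercial supplier, to 2 single-colour Affymetrix arrays, 1 array per sample. The labels define 1 group with no treatment, genotype, strain or age, and their source field names spleen. The only comparison within the design is that of replicate 1 with replicate 2. The labels do not say whether these came from separate animals or lots, so the spread between them may be technical.

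Alcohol dehydrogenases oxidise alcohols to aldehydes with NAD, and aldehyde dehydrogenases oxidise the aldehydes on to acids. In liver this pair of steps removes ingested ethanol by way of acetaldehyde and acetate. The same families also oxidise retinol and retinaldehyde, formaldehyde bound to glutathione, fatty aldehydes and an intermediate of carnitine synthesis.

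The genes lie partly in clusters, and the sequences before 4 gene starts are shown because they set a start of near-median CpG content beside a CpG-rich one, and a paralogous pair side by side. In the RefSeq annotation of GRCm38.p6, 4 of the genes lie on chromosome 3, in the order Adh7, Adh1, Adh4 and Adh5. Only Adh6a and Adh6b stand between Adh1 and Adh4 among protein-coding genes, and 0 such genes separate the other neighbours. Aldh1a1 and Aldh1a7 are direct neighbours on chromosome 19, as are Aldh3a1 and Aldh3a2 on chromosome 11. Aldh2 lies on chromosome 5 and Aldh9a1 on chromosome 1. RefSeq start windows of 300 bases, from 250 before to 50 after a start, were matched for 8 of the 10 genes, as 10 windows. Aldh2 and Aldh3a1 had no entry in the table. The 250 bases before the start of Adh1 are at chr3:138277335-138277584 on the plus strand, and those before the second start of Adh5 at chr3:138442843-138443092 on the plus strand. Capitals mark CpG dinucleotides.
Adh1: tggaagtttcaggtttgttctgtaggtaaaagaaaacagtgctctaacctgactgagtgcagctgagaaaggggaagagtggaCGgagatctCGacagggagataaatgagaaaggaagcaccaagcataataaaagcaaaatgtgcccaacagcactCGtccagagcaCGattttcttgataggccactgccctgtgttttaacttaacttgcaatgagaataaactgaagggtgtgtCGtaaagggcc
Adh5: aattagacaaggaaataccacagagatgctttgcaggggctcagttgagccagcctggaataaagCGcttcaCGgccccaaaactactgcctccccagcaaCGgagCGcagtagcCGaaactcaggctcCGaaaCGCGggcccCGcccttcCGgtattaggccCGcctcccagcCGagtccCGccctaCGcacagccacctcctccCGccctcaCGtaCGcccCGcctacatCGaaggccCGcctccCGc

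The Adh1 stretch held 5 CpG dinucleotides and 44.8% G and C, and the Adh5 stretch held 21 CpG dinucleotides and 63.6% G and C. Over the full windows, the second window of Adh5 had 26 CpG and the window of Aldh3a2 had 21, whereas the median of all 32851 windows was 7. In all, 7 of the 10 windows lay under that median. The GC box letters GGGCGG, searched on both strands, occurred at 3 places in the second Adh5 window and at 1 in the Aldh3a2 window, and in 35.7% of all windows. The E box letters CACGTG, which read the same on both strands, were found in the windows of Adh1 and Aldh3a2 and in 7.15% of all windows. The letters AGGTCA, a half-site of nuclear receptor elements, were found in the Adh4 window, at 2 places, and in 16.3% of all windows. The other letters searched on both strands were TATAAA, present in 3 of the 10 windows and 13.6% of all windows, CCAAT in 6 and 37.4%, TTGCNNAA, a core of C/EBP sites, in 2 and 10.8%, and GTTAAT, part of HNF1 sites, in 1 and 7.10%. A match of this kind is a description of the letters and not evidence of a bound site.

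**Figure D1:**
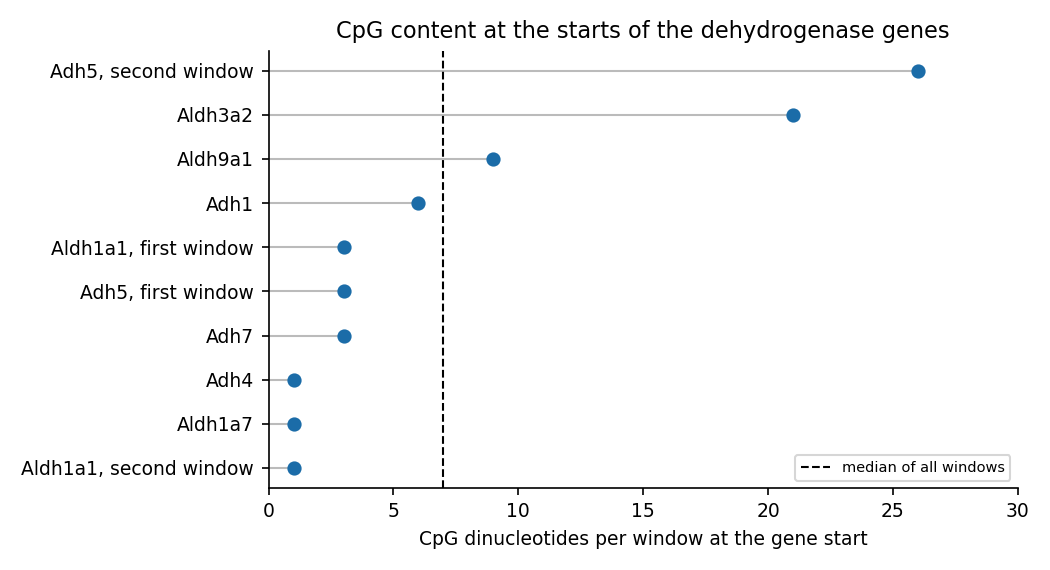
CpG dinucleotides (horizontal axis) in each RefSeq start window of 300 bases, 1 row per window, with a dashed line at the median of all windows. The second window of Adh5, with 26, and the window of Aldh3a2, with 21, lie far right of the median of 7, and 7 of the 10 windows lie left of it.

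The 100 bases before the second start of Aldh1a1 and the start of Aldh1a7 are shown next because they are almost the same. They lie at chr19:20601868-20601967 on the plus strand and at chr19:20727557-20727656 on the minus strand of GRCm38.p6. Capitals mark the bases that differ.
Aldh1a1: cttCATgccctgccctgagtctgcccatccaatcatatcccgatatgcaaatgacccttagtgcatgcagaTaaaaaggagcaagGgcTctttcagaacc
Aldh1a7: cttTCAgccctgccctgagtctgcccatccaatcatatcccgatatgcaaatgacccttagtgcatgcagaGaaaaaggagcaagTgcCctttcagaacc

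Of these 100 bases 94 were identical without a gap. In the 150 bases farther from the start, a global alignment gave 81 identical bases over 165 aligned columns (49.1%). Among the 45 pairs of start windows of these genes, this pair had the highest aligned identity, 70.8%, and the next pair had 50.9%. Counted from 1 at the 5′ end of the printed stretch, the differences are C4T, A5C, T6A, T72G, G86T and T89C, with the Aldh1a1 base first. T72G, which lies 29 bases before the start, falls within the letters ATAAAA of Aldh1a1. This TATA-like string was found on either strand in 5 of the 10 windows and in 18.5% of all windows. The Aldh1a7 window held that string only at 243 bases before the start. The choice of this string was made with the sequences known.

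The title and the source field were set beside cell type markers. A background threshold was set on each array at the 95th percentile of 91 measured genes typical of muscle, retina, testis or brain. It was 451.5 on replicate 1 and 407.5 on replicate 2. Above it on both arrays lay 15 of 15 hepatocyte markers, 7 of 9 Kupffer cell, 1 of 7 endothelial, 3 of 8 stellate cell, 0 of 4 bile duct, 0 of 7 B cell, 0 of 9 T cell and 2 of 6 red cell markers, against 31.7% of all named genes. The stellate cell marker Col1a2 was above it only in a set named with r (1493 on replicate 1 and 1402 on replicate 2). Its other set gave 277.8 and 204.6. Macrophages and red cells also occur in spleen, and no list of spleen stroma was used here. The brightest of these lists were Alb, C1qc, Eng, Dcn, Cftr, Cd79a, Cd3g and Hba-a1. Over all probe sets the median was 163.2 on replicate 1 and 157.7 on replicate 2. Arrays have no count depth, and their number limits the precision. In RNA of whole tissue, fewer cells of a type and less RNA per cell cannot be told apart.

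Most of the dehydrogenase genes were bright in this RNA. Of the 10 genes 9 were above background on both arrays, against 31.7% of all 8251 named genes. The exception was Aldh3a1. The genes were chosen with earlier results of these data known, so this contrast may reflect which genes were listed. Of 4 other aldehyde dehydrogenases measured, 1 was above background. Each gene was represented by its probe set of highest mean log2 signal. The median percentile of the 10 genes among all named genes was 94.3, where all genes have 50 by construction, and their median signals on replicates 1 and 2 were 3283 and 3330, against 228.8 and 219.2 for all named genes. Adh1 and Aldh1a1 lay in the top 1% of genes, and 5 of the 10 lay in the top 5%. Probe brightness depends on probe sequence, so a percentile gives a gene's place within the array's signal and does not order transcript abundance between genes.

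**Figure D2:**
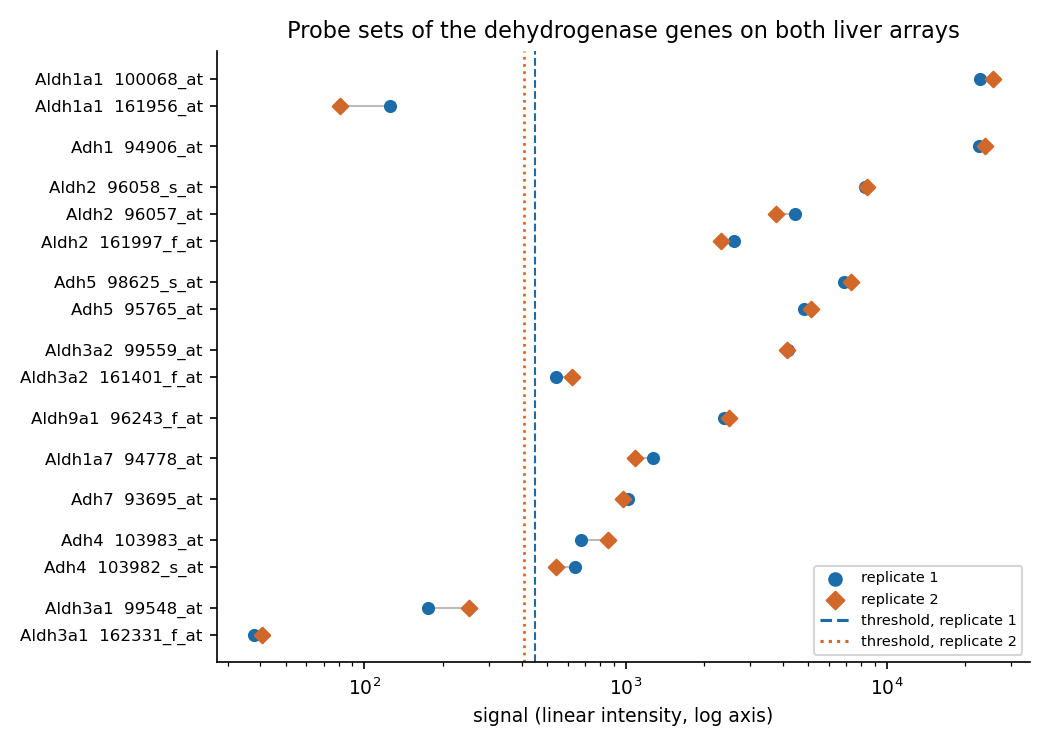
Signal (horizontal log axis, linear intensity) of each of the 17 probe sets, 1 row per probe set and grouped by gene, with circles for replicate 1, diamonds for replicate 2 and vertical lines at the background threshold of each array. Of the 17 sets, 14 lie right of both lines. The 3 that do not are both sets of Aldh3a1 and the second set of Aldh1a1. Across the array, 26.4% of 10833 single-gene sets passed both thresholds.

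The alcohol dehydrogenases of the ethanol route lay far apart within the array's signal. Adh1, the class I enzyme that carries out most ethanol oxidation in mouse liver, gave 22498 on replicate 1 and 23829 on replicate 2 from its single probe set. Its mean was 23163 ± 940.5 (SD, n = 2 arrays), and it ranked 39 among all genes by mean signal. Both values were over the threshold by a wide margin, by 49.8 times on replicate 1 and 58.5 times on replicate 2.

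Adh4, the class II enzyme, which oxidises retinol and longer alcohols, gave 673.8 on replicate 1 and 856.8 on replicate 2 from its brighter set. Its other set gave 638.8 and 540.4. The sets ran in opposite directions between the arrays, and their ratio was 1.05 on replicate 1 and 1.59 on replicate 2. Adh4 was at percentile 78.8, and its brighter set exceeded the threshold by 1.49 times on replicate 1 and 2.10 times on replicate 2. At the 99th percentile of the background genes (1004 on replicate 1 and 917.1 on replicate 2) Adh4 was not above background, and both of its sets lay within the range of the background genes.

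Adh5, the class III enzyme, oxidises the adduct of formaldehyde and glutathione and also reduces S-nitrosoglutathione. Its brighter set gave 6882 on replicate 1 and 7294 on replicate 2, a mean of 7088 ± 291.1 (SD, n = 2). Its other set gave 4845 and 5152. The ratio of both sets was 1.42 on each array. Adh5 was at percentile 97.5.

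Adh7, the class IV enzyme, is known from stomach and other epithelia, where it oxidises ethanol and retinol. It gave 1024 on replicate 1 and 981.5 on replicate 2 from its single set, a mean of 1003 ± 30.3 (SD, n = 2) at percentile 83.6. This was 2.27 and 2.41 times the threshold. Of the 91 background genes, 4 were also above it, and the brightest of them, the sperm gene Tnp1, gave 1164 on replicate 1 and 1043 on replicate 2, so the signal of Adh7 lay within the range of the background genes. Tnp1, Pvalb and Crybb2, which are 3 of these 4 genes, were represented by sets named with r or i, and their other sets were below the threshold.

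Markers of stomach and cornea, the tissues best known for Adh7 and Aldh3a1, were examined beside these genes. Of 13 measured, 3 (23.1%, against 31.7% of all named genes) were above background on both arrays, namely the trefoil peptides Tff1 (1825 on replicate 1 and 1307 on replicate 2) and Tff2 (609.0 and 679.9) and the keratin Krt4 (1190 and 595.8). The second probe set of Krt4 gave 28.8 and 22.5. Over all 13 markers the signals summed to 4694 on replicate 1 and 3605 on replicate 2. The subunits of the gastric proton pump gave 420.9 and 280.7 (Atp4a) and 18.4 and 24.8 (Atp4b). The hormone gastrin, Gast, gave 207.1 and 213.4, intrinsic factor, Cblif, 195.8 and 158.1, the gastric mucin Muc5ac 15.9 and 20.8, and the corneal keratin Krt12 85.5 and 174.4. The choice of these 6 genes was made with their values known. The part of these cells in the signal of Adh7 was not tested.

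Among the aldehyde dehydrogenases, Aldh2 and Aldh1a1 act on acetaldehyde and retinaldehyde. Aldh2, the mitochondrial enzyme that oxidises most acetaldehyde, gave 8268 on replicate 1 and 8392 on replicate 2 from its brightest set, a mean of 8330 ± 87.4 (SD, n = 2) at percentile 97.9. Its second set gave 4448 and 3780 and its dimmest 2607 and 2325. All 3 sets were above background on both arrays, and the brightest exceeded the dimmest by 3.17 times on replicate 1 and 3.61 times on replicate 2. The brightest set was slightly higher on replicate 2, and both other sets were higher on replicate 1.

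Aldh1a1, a cytosolic enzyme that makes retinoic acid from retinaldehyde, gave 22681 on replicate 1 and 25503 on replicate 2, a mean of 24092 ± 1995 (SD, n = 2). Its other probe set gave 125.3 on replicate 1 and 80.8 on replicate 2 and was not above background. The brighter set exceeded it by 181.0 times on replicate 1 and 315.6 times on replicate 2. Of 846 genes above background with more than 1 probe set, 46 (5.44%) had a ratio between sets as large as this, and the median ratio was 6.94. The place of Aldh1a1 in the top 1% thus rests on 1 set.

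Aldh1a7, the rodent paralogue of Aldh1a1 that lies next to it, gave 1270 on replicate 1 and 1086 on replicate 2 from its single set, at percentile 85.9. Its mean was 1178 ± 130.4 (SD, n = 2), or 2.81 and 2.67 times the threshold. The near-identical stretches printed above lie before the second start of Aldh1a1 and the start of Aldh1a7. They are not a comparison of the transcripts, whose sequences were not compared here. How much of the Aldh1a7 signal comes from Aldh1a1 transcripts was not tested, since probe sequences were not used here.

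The enzymes of fatty aldehydes and carnitine synthesis were bright, and Aldh3a1 was not above background. Aldh3a2, the fatty aldehyde dehydrogenase whose loss causes Sjögren-Larsson syndrome in humans, gave 4184 on replicate 1 and 4171 on replicate 2, a mean of 4178 ± 8.98 (SD, n = 2) at percentile 95.7. Its other set, of suffix f, gave 541.9 and 625.6, also above background but within the range of the background genes. The ratio of both sets was 7.72 on replicate 1 and 6.67 on replicate 2.

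Aldh9a1, which oxidises trimethylaminobutyraldehyde on the way to carnitine, gave 2382 on replicate 1 and 2489 on replicate 2, at percentile 93.0. Its mean was 2435 ± 76.0 (SD, n = 2), and its single set has suffix f. Aldh3a1, an abundant protein of the cornea that is also found in stomach, gave 175.7 on replicate 1 and 251.8 on replicate 2. Its other set gave 37.9 and 40.7. Both sets lay below the threshold on both arrays, so Aldh3a1 is described as not above background and not as absent, while its direct neighbour Aldh3a2 was above it in both of its sets.

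**Figure D3:**
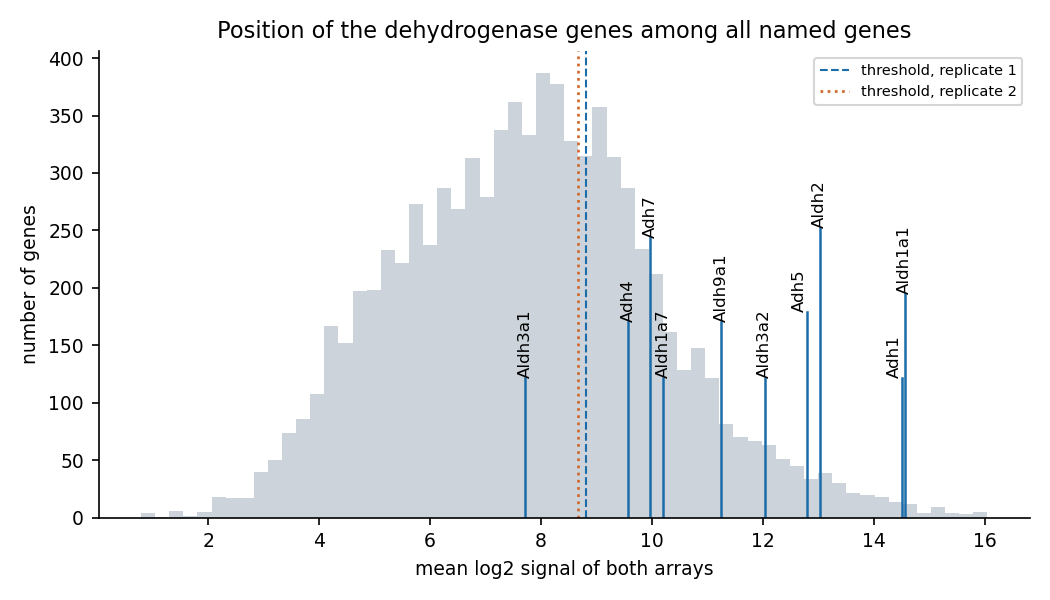
Histogram of the mean log2 signal of all 8251 named genes (vertical axis, number of genes), with a line at each dehydrogenase gene and the background thresholds as dashed and dotted lines; line heights only separate the names. Aldh3a1 stands left of the thresholds, Adh4, Adh7 and Aldh1a7 stand right of them within the body of the distribution, and Adh1 and Aldh1a1 stand in its bright tail.

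The arrays differed little for these genes. Differences are log2 values of replicate 1 minus replicate 2, less the median difference of the brighter 50% of probe sets (0.0058). None of the 10 genes differed over 2-fold, against 14% of all named genes, and 0 of the 9 above background did, against 0.115% of all genes above background, so the share is near the background. With 1 array on each side there is no test of a difference. The median absolute log2 difference was 0.09 in the 9 genes above background and 0.13 in all genes above background. These medians are not matched for signal, and bright sets differ less between the arrays. A comparison with sets of similar signal is given in the next paragraph. Of the 10 genes 8 were lower on replicate 1 after centring. The same share over all named genes was not computed, so this count is not read as a trait of these genes.

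The largest differences were found in sets of low signal, although the dimmest set of all, the other one of Aldh3a1, differed by -0.11. In its brighter set Aldh3a1 differed by a log2 of -0.52, Adh4 by -0.35 and Aldh1a7 by 0.22, while Adh1 differed by -0.09 and Aldh3a2 by -0.0014. The dim set of Aldh1a1 differed by 0.63 and its bright set by -0.17. Each probe set was set beside the sets of similar signal, in 20 bins of equal size. Of the 17 sets, 12 differed by at least the median absolute difference of their bin and 5 by less, and 0 differed by over 2 SD of their bin. The differences of Adh4, 0.24 in one set and -0.35 in the other, stood beside bin medians of 0.18 and 0.15. Low signal did not hold for every larger difference. The second set of Aldh2, in the brightest bin, differed by 0.23 beside a bin median of 0.085.

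**Figure D4:**
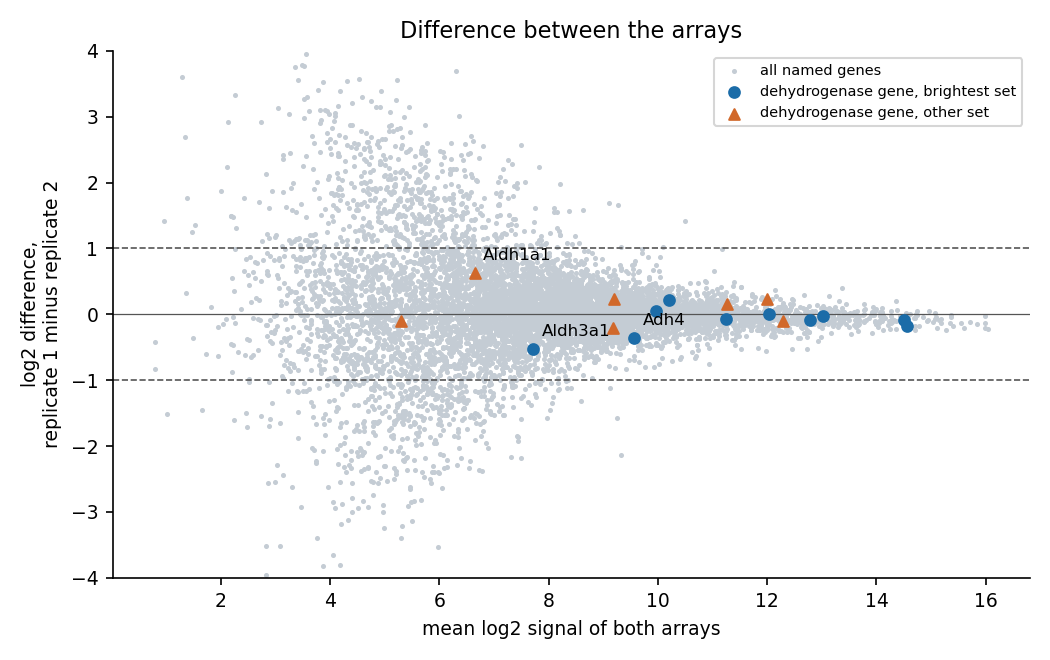
Log2 difference of replicate 1 minus replicate 2 (vertical axis) against mean log2 signal (horizontal axis), with all named genes in grey, the brightest set of each dehydrogenase gene as circles and the other sets as triangles; dashed lines mark 2-fold, and 5 genes lie outside the vertical range. All 17 sets of the dehydrogenase genes lie between the dashed lines, and the other set of Aldh1a1 (0.63) and the brightest set of Aldh3a1 (-0.52) lie farthest from 0.

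Genes connected with these enzymes were above background in part. Of 54 measured genes in 8 lists, 30 (55.6%) were above the threshold on both arrays, against 31.7% of all named genes, and their median percentile was 83.7. Of the 54 genes 9 differed over 2-fold between the arrays, against 14% of all named genes. Of the 30 above background 0 did, against 0.115% of all genes above background. Both counts are near these shares.

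Other steps of the ethanol route were represented by 4 genes, of which 3 (75%, against 31.7% of all named genes) were above background. Cyp2e1, the cytochrome P450 that also oxidises ethanol, gave 46149 on replicate 1 and 53252 on replicate 2. Cyb5a, the cytochrome b5 that passes electrons to P450 enzymes, gave 16375 and 17544, and Cat, catalase, which can oxidise ethanol with peroxide, gave 5770 and 5326. Acss1, a mitochondrial enzyme that activates acetate, gave 65.9 and 15.4 and was not above background.

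The glutathione and formaldehyde genes, which stand beside Adh5, were all above background, 8 of 8 measured, against 31.7% of all named genes. Their median percentile was 93.1. They were led by Glo1, the glyoxalase that acts on methylglyoxal bound to glutathione, with 6618 on replicate 1 and 6687 on replicate 2. Dmgdh, which releases formaldehyde from dimethylglycine, gave 5162 and 3973. The lowest was Gclc, the catalytic subunit of the first enzyme of glutathione synthesis, at 1252 and 1064.

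Of 18 retinoid genes, which stand beside Aldh1a1, Adh4 and Adh7, 8 (44.4%, against 31.7% of all named genes) were above background. The median percentile of the 18 was 59.3. Rbp4, the plasma carrier of retinol, gave 24562 on replicate 1 and 28975 on replicate 2, and the retinol dehydrogenase Rdh7 gave 8867 and 8389. The retinol uptake receptor Stra6, known from other tissues, was the lowest of the list at 18.7 and 10.9.

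Of 14 other aldehyde dehydrogenase genes listed 4 were measured, and 1 of these (25%, against 31.7% of all named genes) was above background. This was Aldh7a1, an enzyme of lysine breakdown, with 8366 on replicate 1 and 8487 on replicate 2. The dimmest set of Aldh7a1 gave 38.5 and 12.9. Aldh18a1, of proline synthesis, gave 71.8 and 62.8, and the retinaldehyde dehydrogenase Aldh1a2 gave 20.6 and 33.1. The other enzyme of that kind, Aldh1a3, gave 32.5 and 53.9 and was named after its values were seen. Of the 3 retinaldehyde dehydrogenases measured, Aldh1a1 was thus the only one above background on both arrays. Of 3 alcohol dehydrogenase-like genes, the quinone reductase Cryz was above background (1910 and 2110), and Mecr (224.8 and 257.3) and Ptgr1 (114.1 and 100.7) were not.

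Of 12 carbonyl reductases and aldehyde oxidases, enzymes that take aldehydes by other routes, 7 (58.3%, against 31.7% of all named genes) were above background. Akr1c6, a hydroxysteroid dehydrogenase, gave 17877 on replicate 1 and 17883 on replicate 2, and Akr1a1, an aldehyde reductase, gave 9266 and 9499. The lowest was the carbonyl reductase Cbr2, at 14.8 and 51.0. Of the 3 carnitine supply genes beside Aldh9a1, Shmt1 was above background (1783 and 1723), the carnitine carrier Slc22a5 was not on replicate 1 (423.2 and 420.6), and Shmt2 was not on replicate 2 (500.8 and 237.4). Of the 2 genes that supply fatty aldehydes to Aldh3a2, Phyh, which starts the breakdown of phytanic acid, gave 14699 and 15184, and the sphingosine phosphate lyase Sgpl1 gave 362.3 and 398.4, not above background.

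**Figure D5:**
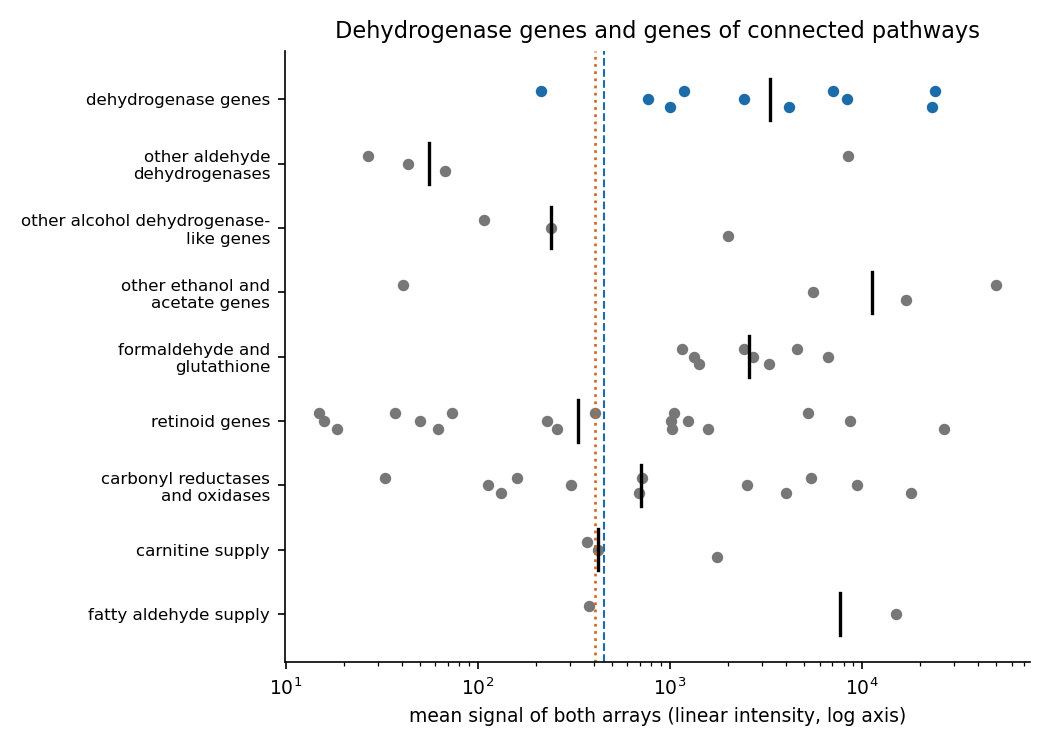
Mean signal of both arrays (horizontal log axis, linear intensity) of each gene, 1 row per list, with the dehydrogenase genes in blue, the median of each list as a black bar and the background thresholds as vertical lines. The 8 glutathione and formaldehyde genes all lie right of the thresholds, whereas 3 of the 4 other aldehyde dehydrogenases lie left of them.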

How the data were processed

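The deposited table holds an intensity for each Affymetrix probe set on each of the 2 arrays, on a linear scale. How the authors scaled and summarised these values is not stated by the labels or the table; the means without the highest and lowest 2% of values were both 500.5. Background correction could not be repeated, which matters most for dim probe sets. Of 12488 probe sets, 10855 named 1 gene, 396 several and 1237 none; 0 of the several-gene sets named a dehydrogenase gene of this report. Gene identifiers were matched to RefSeq symbols for 10839 of the 10855. The genes and lists were chosen with earlier results of these data known. A gene took its probe set of highest mean log2 signal. Above background means over the 95th percentile of the background genes on both arrays. Named genes are the 10 genes, the 2 highest and the lowest of each connected list, those above background where 3 or fewer were, and the highest of each marker list; exceptions are stated. With 1 group, no test was made. Promoter sequences are RefSeq's, and windows were aligned globally (match 1, mismatch -1, gap opening -3, extension -1). The log2 differences between the arrays and the calls above background were tested on simulated data, and the other steps were not. Tools were Biopython 1.88, pandas 2.3.3, numpy 2.4.6, matplotlib 3.10.9 and Python 3.11.15.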

Additional observations from a re-analysis of the deposited data

How the results depend on the processing

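The 9 genes above background stayed 9 at the 90th percentile of the background genes, when all sets of a gene were averaged and on each array alone. The 90th percentile and a single array are looser rules, which could only have added Aldh3a1. Averaging also lowered the threshold, to 245.5 on replicate 1 and 320.6 on replicate 2. The count was 8 at the 99th percentile, where Adh4 was not above it and Adh7 passed narrowly on replicate 1 (1024 against 1004). It was 8 of 9 measured without the sets named with f, s, r, i or g, where Aldh9a1 had no set left. The median percentile was 91.4 when sets were averaged, where Aldh1a1 was at percentile 91.4 since its dim set enters the mean, and 95.9 without the suffixed sets; it ran from 94.29 to 94.33 with each array left out in turn. The connected genes above background numbered 26 to 33 over the alternatives, against 30. No gene of the 10 passed the 2-fold limit under quantile normalization, without centring, with log2(value + 32) or with either other probe set rule, and none passed a 1.5-fold limit. Of 49 log2 differences recomputed, 5 changed sign, all in Aldh1a1, Aldh2 or Aldh3a2, that of Adh1 was 0 under quantile normalization, and the largest was 0.57 in absolute value. No paired analysis was possible because the labels define 1 group. Aldh3a1 was not above background in either set, so its level is not known. The threshold comes from the probe sets of other genes and puts no upper bound on that level.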
